A study of Mus musculus with 6 samples.

Results

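The genes examined here carry a receptor signal from Gαs to protein kinase A (PKA). They are Gnas, which encodes Gαs, the adenylyl cyclases Adcy3, Adcy7 and Adcy9, the PKA catalytic subunits Prkaca and Prkacb, the PKA regulatory subunits Prkar1a, Prkar2a and Prkar2b, and the anchoring protein Akap13. They were chosen by function, 10 in all, with earlier results of these data known. Each had a row among the 12431 genes of the count table. RNA was taken from splenic follicular B cells of adult male mice, sorted and then cultured for 1 h in complete RPMI with no added stimulus. The 3 WT libraries came from Gpr174+/Y mice and the 3 KO libraries from Gpr174-/Y mice. The study states 3 mice per genotype for its other GPR174 time points. The number of mice behind the 1 h libraries was not found in its text. The KO allele is a germ line reporter knock-in: Gpr174 has lost its coding sequence and drives tdTomato, so that every cell of the animal, and not B cells alone, lacked the receptor. GPR174 is a receptor for lysophosphatidylserine. The study gives evidence that it signals through Gαs in B cells, and cites reports of coupling to Gαi and Gα13 as well. The comparison of genotypes asks whether mRNAs of the Gαs machinery below the receptor follow its presence.

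In this pathway a receptor loads Gαs with GTP, and Gαs then switches on adenylyl cyclase, a membrane enzyme that makes cAMP from ATP. Without cAMP, PKA is a complex in which a pair of regulatory subunits holds a pair of catalytic subunits inactive. cAMP binds the regulatory subunits and frees the catalytic subunits, which phosphorylate proteins that include the transcription factor CREB. Type I regulatory subunits are mostly soluble, whereas type II subunits are mostly held at membranes and the cytoskeleton by A-kinase anchoring proteins. In lymphocytes cAMP is known to dampen antigen receptor signaling and to induce a set of early genes.

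Total counts ranged from 8452460 to 10944833 per library. Along the first principal component WT replicate 2 lay at a score of 32.5 and the other libraries between -8.18 and -4.33. The targeted gene Gpr174 was higher in WT (log2 fold change 0.35, edgeR adjusted p 0.0359). It was at 136, 125 and 121 CPM (counts scaled to the size of the library) in WT replicates 1 to 3 and at 99.8, 100.2 and 99.8 CPM in KO replicates 1 to 3. Tags at the 3′ end can lie outside the deleted coding sequence, so these counts do not check the deletion. Of the 8 follicular B markers with a row, Ms4a1 (CD20) was highest, at 1316 CPM on average. Cd79a and Pax5 were lowest, at 49.8 and 9.68 CPM. Cr2, which encodes CD21/35, averaged 1050 CPM although the label describes the cells as CD21/35-. Summed over 8 follicular B markers, levels were 4936 to 5129 CPM in WT and 5469 to 5701 CPM in KO, and 1 of the 8 (Cd79b) was called, lower in WT. Summed myeloid markers reached 71.5 to 94.9 CPM in WT and 63.0 to 72.7 CPM in KO, and all 8 tested were higher in WT, none past the threshold. Summed T cell markers reached 48.1 to 65.8 CPM in WT and 34.9 to 54.4 CPM in KO (5 of 5 tested higher in WT, none past the threshold), and NK markers 7.83 to 14.1 CPM and 6.53 to 7.30 CPM. Plasma cell markers summed to 449 to 529 CPM in WT and 560 to 623 CPM in KO, mostly from Irf4, which B cells also express and which was called lower in WT (log2 fold change -0.38, edgeR adjusted p 0.00430). Marginal zone markers summed to 969 to 1157 CPM in WT and 972 to 1225 CPM in KO. Erythroid and platelet markers summed to 2699 to 4738 CPM in WT and 3021 to 7592 CPM in KO. Most of this came from the hemoglobin gene Hbb-bs, at 4834 CPM on average. The plasma cell marker Tnfrsf17 was at 0 in WT replicate 1 and in KO replicates 1 and 3. The T cell marker Cd3g was at 0 in KO replicate 1. The other plasma cell and T cell markers were above 0 in every library, with Jchain at 17.4 CPM and Lck at 40.0 CPM on average. Most of the T cell sum came from Lck. Cd3d was next, at 3.14 CPM on average, and Cd3e and Cd3g averaged 0.73 and 0.83 CPM. The part of these differences in the results on the Gs, cyclase and PKA genes was not tested.

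The promoters of the genes were examined for the cAMP response element (CRE), the DNA site bound by CREB. RefSeq windows of 300 bases (GRCm38.p6, 250 before to 50 after each annotated start) were found for 10 of 10 genes, 25 windows in all. The full site TGACGTCA, which reads the same on both strands, occurred in 2 of the 25 windows, against 1.79% of 32851 windows genome-wide. Both are overlapping windows of Prkar1a that hold the same site, so they count as 1 site in 1 of the 10 genes. It is shown because Prkar1a had the smallest p of the 10 genes in the comparison of genotypes. The search was chosen with that value known, and a match describes the letters, not binding. The site starts 49 bases before an annotated start of Prkar1a and also lies 38 bases past another annotated start. The capitals mark the CRE.
Prkar1a chr11:109650889-109650918, plus strand: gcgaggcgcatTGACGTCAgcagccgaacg

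The shorter core site TGACG was searched on both strands and is contained in every full site. It occurred in 11 of the 25 windows, against 20.8% of all windows, and overlapping windows of Gnas and of Prkar1a shared sites. By gene, 7 of the 10 had a match in at least 1 window. Genes with more windows, such as Prkar1a with 6, have more room for a match. The share over all genes was not taken, so the count by gene has no background here. Windows of Adcy3, Prkar2b and Akap13 had no match. Windows of the main Gαs, cyclase and catalytic subunit genes are shown, written along the strand of the gene, with the core site in capitals as CGTCA because it was matched on the opposite strand. The first base in capitals lies 38 bases before an annotated start in Gnas, 28 in Adcy7, 102 in Prkacb and 6 in Prkaca. Gnas has 4 windows, and the site shown also lies 57 bases before another of its starts. Other matches, not printed, lie 216 bases before a further Gnas start and 120 bases before that Prkaca start. Which of the Gnas starts serves Gαs was not examined.
Gnas chr2:174327699-174327728, plus strand: aagaggttggggCGTCAtcaggctggttag
Adcy7 chr8:88282952-88282981, plus strand: tgatcatagagcCGTCAggggggtggggct
Prkacb chr3:146813031-146813060, minus strand: ggggcttgaccgCGTCActtccggcgcgcc
Prkaca chr8:83972960-83972989, plus strand: gggctgcgggggCGTCAcggacagaggact

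B cells had Gnas, 1 cyclase, both catalytic subunits and 1 regulatory subunit as the well-counted parts of the pathway. The libraries were primed at the 3′ ends of transcripts, so a count stands for about 1 transcript end and CPM was not divided by length. The order was also taken per kilobase of the longest annotated transcript. Averaged over 6 libraries, Gnas stood at 1053 CPM, Akap13 at 804 CPM and Prkar1a at 521 CPM. Prkacb followed at 176 CPM, Adcy7 at 121 CPM and Prkaca at 71.0 CPM. The remaining genes were far lower on the CPM scale, with Prkar2a at 13.5, Prkar2b at 3.69, Adcy9 at 1.53 and Adcy3 at 0.35. Each gene down to Prkar2a lay above the next in 6 of 6 libraries, with no overlap of their ranges. Prkar2b and Adcy9 overlapped on the CPM scale, as did Adcy9 and Adcy3, so the ranges of these neighbors did not separate them. Within libraries, Prkar2b lay above Adcy9 in 5 of 6, and Adcy9 above Adcy3 in 6 of 6, at low counts. Per kilobase, 7 of the 9 neighboring pairs kept their order. The exceptions were Prkar1a, which passed Akap13 (148 against 63.8 CPM per kb), and Prkaca, which passed Adcy7 (31.2 against 20.3 CPM per kb). Akap13 has the longest annotated transcript of the 10 genes, at 12.6 kb.

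**Figure D1:**
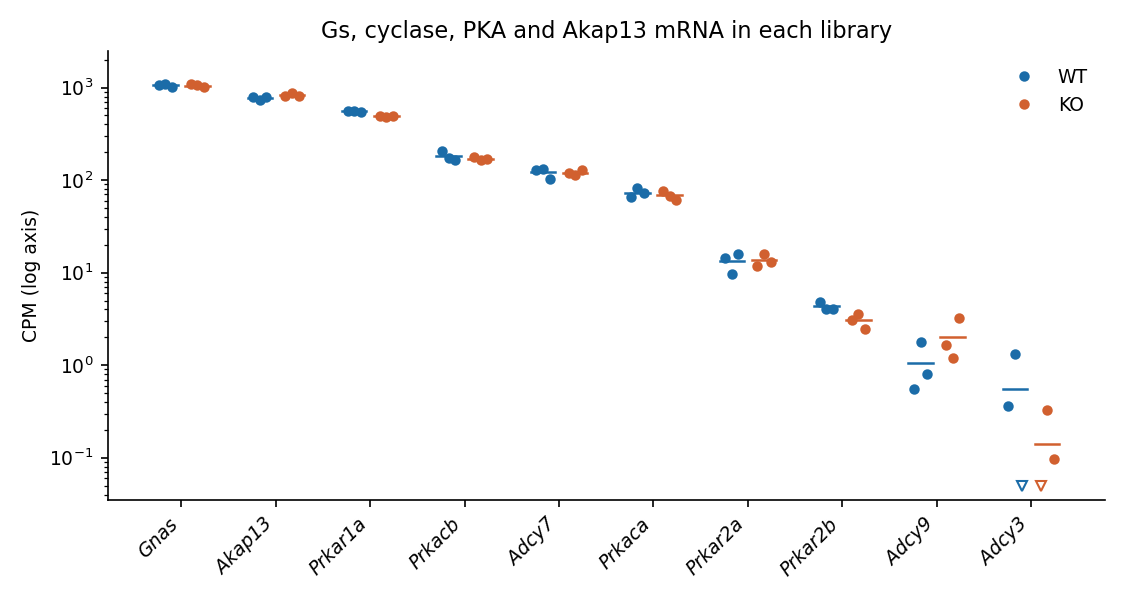
Levels of the 10 genes in each library as CPM on a log axis, with WT in blue, KO in orange, a point for each library and a line at each group mean. Open triangles at the bottom mark libraries with no count of Adcy3. Gnas lay between 1003 and 1087 CPM in all 6 libraries, and Adcy9 and Adcy3 lay at or below 3.22 CPM.

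None of the 10 genes was called different between WT and KO cells by edgeR. After the filter on low counts 9 of the 10 could be tested. At an edgeR adjusted p under 0.05, 0 of the 9 were called, where 1.82% of all 10514 tested genes were. At an unadjusted p under 0.05 the count was 1 of 9, where 11.9% of all tested genes passed, and limma-voom called 0. DESeq2 on the whole table called 1, Prkar1a, where it called 3.26% of the 7852 genes to which it gave an adjusted p. CPM of WT and KO did not overlap in 3 of the 9 (Prkar1a, Akap13 and Prkar2b), against 16.7% of all tested genes. Of the 9, 6 were higher and 3 lower in WT, with a median log2 fold change (WT over KO) of 0.0098 against -0.0026 over all tested genes. In bulk RNA, fewer cells with a transcript and less transcript per cell cannot be told apart, and this holds for each value here.

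Gnas is the only member that encodes the G protein itself. Its locus (chromosome 2, 174284320 to 174346744, mm10, plus strand) has 24 annotated transcripts. It is imprinted and also makes the XLαs and NESP55 products, which share downstream exons with Gαs, so counts at the 3′ end cannot tell these products apart. Gnas was at 1062, 1081 and 1021 CPM in WT replicates 1 to 3. In KO replicates 1 to 3 it was at 1087, 1064 and 1003 CPM. The lowest and the highest library were both KO, and the WT values lay within the KO range. Means were 1055 CPM ± 30.4 in WT and 1051 CPM ± 43.6 in KO (SD, n = 3 each). The log2 fold change was 0.0048 ± 0.062 (SE, edgeR adjusted p = 0.989). The 95% interval of the WT to KO ratio ran from 0.919 to 1.10. Nespas and Gm20721, annotated on the opposite strand, overlap Gnas, and the use of strand in counting was not stated.

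Adcy7, a cyclase known for its expression in blood cells, gave nearly all cyclase counts. Among the counts of Adcy3, Adcy7 and Adcy9 its share was 99.3%, 97.7% and 99.2% in WT and 98.6%, 98.7% and 97.5% in KO replicates 1 to 3. The shares overlapped between genotypes (exact permutation p = 0.5, the smallest possible being 0.1). Adcy7 (chromosome 8, 88272403 to 88329962, plus strand) was at 129.5, 131 and 103 CPM in WT. In KO it was at 119, 114 and 128 CPM. WT replicate 3 was the lowest library of all and the other WT libraries the highest, so the KO values fell inside the WT range. The log2 fold change was 0.0098 ± 0.098 (SE, edgeR adjusted p = 0.984), and the 95% interval of the ratio ran from 0.875 to 1.16.

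The other cyclases were close to the limit of detection. Adcy9 had 6, 15 and 7 counts in WT and 18, 11 and 33 counts in KO, with means of 1.04 CPM ± 0.66 and 2.02 CPM ± 1.06 (SD, n = 3 each). KO replicate 3 held the most counts, and the groups overlapped. The log2 fold change was -0.97 ± 0.71 (SE, edgeR adjusted p = 0.656), and the 95% interval of the ratio from 0.187 to 1.40 did not set its direction. Adcy3 had 4, 11 and 0 counts in WT and 0, 3 and 1 counts in KO, and did not pass the filter. A count of 0 allowed up to 0.34 CPM in WT replicate 3 and 0.27 CPM in KO replicate 1. Cenpo, on the opposite strand, overlaps Adcy3. Of 7 further cyclases listed, Adcy5 and Adcy6 had rows, with 15 and 23 counts over the 6 libraries, and neither passed the filter. Adcy1, Adcy2, Adcy4, Adcy8 and Adcy10 had no row in the table, whose smallest total was 10 counts, and were not analysed here. Summed over Adcy3, Adcy7 and Adcy9, cyclase levels were 123 CPM ± 16.7 in WT and 123 CPM ± 7.76 in KO (SD, n = 3 each, exact permutation p = 1).

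Both catalytic subunits of PKA, the kinase's active part, were counted in every library. Prkacb (chromosome 3, 146729574 to 146812990, minus strand) was at 207, 173 and 164 CPM in WT replicates 1 to 3. In KO it was at 178, 164 and 171 CPM. WT replicate 1 stood above the rest, and the other values overlapped. The log2 fold change was 0.086 ± 0.088 (SE, edgeR adjusted p = 0.778), and the 95% interval of the change ran from -6.40% to 20.3%. Without WT replicate 1 the log2 fold change was -0.020. Prkaca (chromosome 8, 83972993 to 83996443, plus strand) was at 66.5, 81.6 and 72.3 CPM in WT. In KO it was at 76.8, 67.6 and 61.0 CPM, again within overlapping ranges. Its log2 fold change was 0.099 ± 0.11 (SE, edgeR adjusted p = 0.800), and the 95% interval of the ratio ran from 0.912 to 1.26.

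The balance between the catalytic subunits did not separate the genotypes. Prkacb made up 75.6%, 68.0% and 69.3% of catalytic counts in WT and 69.8%, 70.8% and 73.7% in KO replicates 1 to 3. Means were 71.0% ± 4.09 and 71.4% ± 2.03 (SD, n = 3 each, exact permutation p = 0.9). Per kilobase the Prkacb share was lower, at 56.5% over the 6 libraries, because its longest transcript is 4.35 kb against 2.28 kb for Prkaca. On either scale Prkacb exceeded Prkaca in 6 of 6 libraries.

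Among regulatory subunits, Prkar1a (RIα) was nearly the only one counted, and it had the smallest p of the 9 tested genes, although it was not called. Prkar1a (chromosome 11, 109649405 to 109669656, plus strand) is the gene with the full CRE shown above, and no annotated gene overlaps it. It was at 559, 564 and 542 CPM in WT replicates 1 to 3. In KO replicates 1 to 3 it was at 495, 480 and 487 CPM. All WT libraries lay above all KO libraries, and the spread within each genotype was smaller than the gap between them. Means were 555 CPM ± 11.3 in WT and 488 CPM ± 7.60 in KO (SD, n = 3 each). The WT to KO ratio was 1.14 with a 95% interval from 1.04 to 1.25. The log2 fold change was 0.19 ± 0.064 (SE, edgeR adjusted p = 0.171, or 0.00681 before adjustment). Of all tested genes 4.81% had an unadjusted p under 0.01. DESeq2 on the whole table gave an adjusted p of 0.0460, and DESeq2 on the filtered genes gave 0.0628. When single libraries were omitted in turn the log2 fold change stayed between 0.17 and 0.20, with edgeR adjusted p values from 0.169 to 0.429. Without WT replicate 2, the library that stood apart, it was 0.18 (edgeR adjusted p 0.289).

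The type II subunits were minor. Prkar2a (RIIα) was at 14.4, 9.78 and 16.0 CPM in WT and at 11.8, 15.8 and 13.2 CPM in KO. WT replicate 2 was lowest and WT replicate 3 highest. Its log2 fold change was -0.018 ± 0.23 (SE, edgeR adjusted p = 0.989), and it was 0.16 without WT replicate 2. Prkar2b (RIIβ) rested on 53, 34 and 36 counts in WT and 34, 33 and 25 counts in KO. As CPM these were 4.85, 4.05 and 4.09 against 3.09, 3.60 and 2.44, so that all WT values lay above all KO values. Its log2 fold change was 0.51 ± 0.43 (SE, edgeR adjusted p = 0.716), and the 95% interval of the ratio ran from 0.768 to 2.64.

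As shares of regulatory counts, Prkar1a held between 96.1% and 97.6% in the 6 libraries, Prkar2a between 1.69% and 3.16%, and Prkar2b between 0.485% and 0.839%. Each of these shares overlapped between genotypes, with exact permutation p values of 0.7, 0.5 and 0.2. Over the 8 shares and ratios compared on the count scale, the Benjamini-Hochberg adjusted exact permutation p values ran from 0.8 to 0.9. Summed regulatory levels were 578, 578 and 562 CPM in WT and 510, 500 and 503 CPM in KO replicates 1 to 3. They did not overlap, with an exact permutation p of 0.1, the smallest that 3 against 3 libraries allow, and this sum is nearly Prkar1a itself. Summed catalytic levels were 273, 255 and 236 CPM in WT and 254, 231 and 232 CPM in KO, and overlapped (exact permutation p = 0.2). Regulatory CPM exceeded catalytic CPM in every library, by a factor of 2.12, 2.27 and 2.38 in WT and 2.01, 2.16 and 2.17 in KO. The log2 of this ratio was higher in WT by 0.096, and the genotypes overlapped (exact permutation p = 0.3). Per kilobase the difference was 0.093 (exact permutation p = 0.2).

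**Figure D2:**
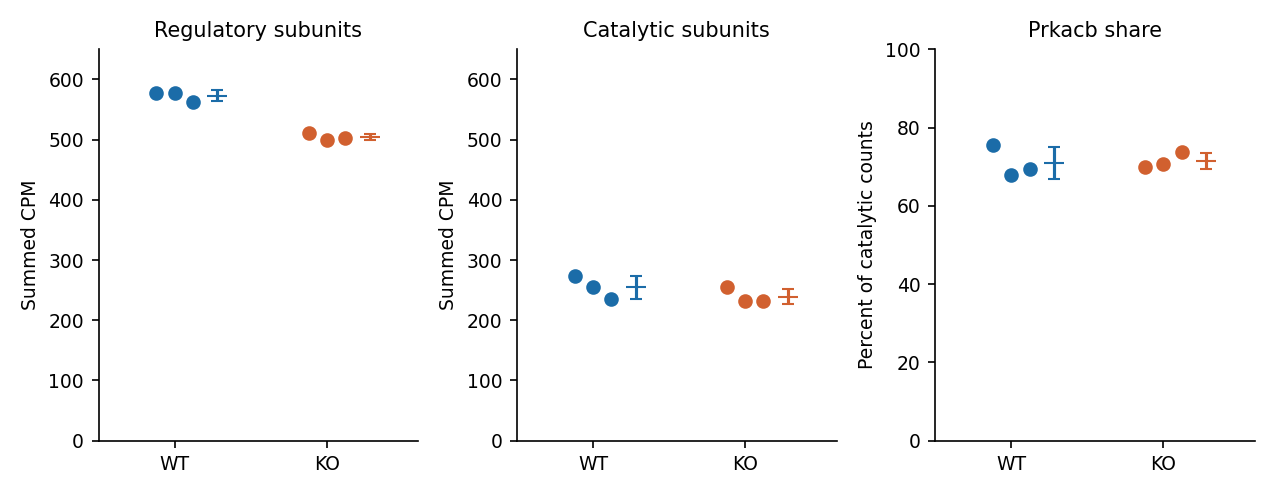
Summed CPM of the PKA regulatory subunits (left) and catalytic subunits (middle), and the percentage of catalytic counts that came from Prkacb (right), with points for libraries and bars for mean ± SD of 3 libraries. Regulatory sums were 562 to 578 CPM in WT and 500 to 510 CPM in KO, whereas catalytic sums and the Prkacb share overlapped between genotypes.

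Akap13, a large scaffold that binds PKA and also activates the small GTPase RhoA, had a fold change of the opposite sign and was not called. Akap13 (chromosome 7, 75455534 to 75754609, plus strand) was at 783, 742 and 792 CPM in WT replicates 1 to 3. In KO replicates 1 to 3 it was at 814, 884 and 810 CPM. All KO libraries lay above all WT libraries, KO replicate 2 highest, but the gap of the nearest libraries was smaller than the spread within either genotype. Means were 772 CPM ± 26.3 in WT and 836 CPM ± 41.6 in KO (SD, n = 3 each). Its log2 fold change was -0.11 ± 0.064 (SE, edgeR adjusted p = 0.509), and the 95% interval of the ratio ran from 0.844 to 1.01. It remained negative in every alternative fit, and without KO replicate 2 it was -0.075 (edgeR adjusted p 0.834). Of the genes annotated within Akap13, 5 lie on its own strand.

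How small a difference these libraries could show depended on the level of each gene. The SE of the log2 fold change was 0.062 for Gnas, 0.064 for Akap13 and for Prkar1a, 0.088 for Prkacb, 0.098 for Adcy7 and 0.11 for Prkaca. It was 0.23 for Prkar2a, 0.43 for Prkar2b and 0.71 for Adcy9. For the 6 most abundant genes, the 95% intervals of the WT to KO ratio lay between 0.844 and 1.26. The intervals of Prkar2b and Adcy9 were wider, from 0.768 to 2.64 and from 0.187 to 1.40.

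**Figure D3:**
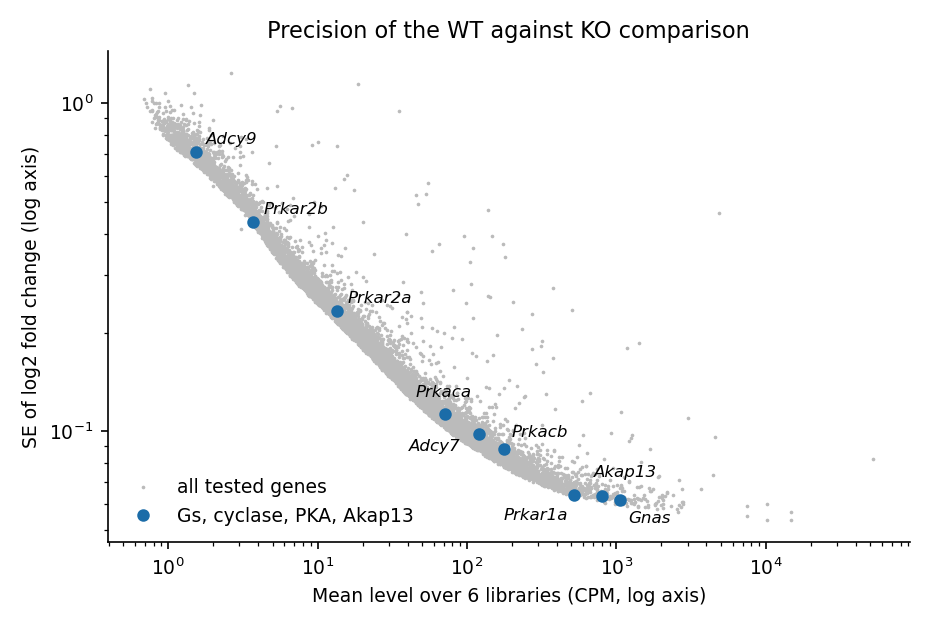
SE of the log2 fold change between WT and KO against mean CPM over 6 libraries, both on log axes, with all tested genes in grey and the 9 tested genes of the group in blue. The SE falls from 0.71 for Adcy9 to 0.062 for Gnas as the level rises.

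Other genes of the pathway were then examined from lists of 93 genes written by function, also with earlier results of these data known. Of these, 57 had a row and 40 passed the filter. One was called at an edgeR adjusted p under 0.05, higher in WT, where 1.3% of all tested genes were called higher and 0.514% lower. The median log2 fold change of the 40 was -0.028, and WT and KO did not overlap in 9 of the 40, against 16.7% of all tested genes. The called gene was Gna13, which encodes an α subunit of the G12 class that couples receptors to RhoA. It was at 556, 616 and 575 CPM in WT and at 424, 447 and 439 CPM in KO replicates 1 to 3. Every WT library lay above every KO library, the nearest values being 556 and 447 CPM. The log2 fold change was 0.41 ± 0.066 (SE, edgeR adjusted p = 0.000309). Gna13 was called in 16 of 16 alternative fits, with edgeR, limma-voom or DESeq2 adjusted p values up to 0.00723.

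At an unadjusted p under 0.05 there were 6 of the 40, where 11.9% of all tested genes passed, Gna13 and 5 others, of which 4 are named here, after their values were seen. Akap11, an anchoring protein, was at 75.8, 81.1 and 79.2 CPM in WT and at 65.8, 59.4 and 62.2 CPM in KO, with a log2 fold change of 0.33 ± 0.10 (SE, edgeR adjusted p = 0.117). The other named genes were Akap14, Gnb4 and Gnal, with log2 fold changes of -1.14, -1.38 and -0.28 (edgeR adjusted p 0.166, 0.283 and 0.214). Gnal, the Gαs-like subunit of olfactory neurons, overlaps Chmp1b on its own strand, so its 94.9 CPM may not all be its own. None of the 5 was called.

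Genes that act on the same steps were also present, and none of those that follow was called. Gnai2, the α subunit of Gi that inhibits cyclases, averaged 1608 CPM, with a log2 fold change of -0.11 ± 0.061 (SE, edgeR adjusted p = 0.498), and its groups did not overlap. Gnai3 averaged 78.4 CPM, with a log2 fold change of 0.16 (edgeR adjusted p 0.576), and its groups did not overlap either. The β and γ subunits Gnb1, Gnb2 and Gng10, which part from the α subunit on activation, averaged 188, 175 and 119 CPM, and 0 of the 9 tested in their list were called (1 at an unadjusted edgeR p under 0.05). Prkx, a kinase related to the PKA catalytic subunits, averaged 129.5 CPM, with a log2 fold change of 0.042. The PKA inhibitor proteins Pkig and Pkib averaged 87.7 and 70.4 CPM, with log2 fold changes of 0.012 and -0.088. Among 11 tested anchoring proteins other than Akap13, 0 were called (2 at an unadjusted edgeR p under 0.05), and the best counted, Akap9, Akap8 and Akap8l, averaged 368, 127 and 119 CPM with log2 fold changes of -0.026, -0.031 and -0.065. Ric8 (Ric8a) and Ric8b, chaperones that fold G protein α subunits, averaged 41.7 and 19.5 CPM with log2 fold changes of -0.14 and -0.26. The cAMP-activated exchange factors Rapgef4 and Rapgef3 averaged 39.5 and 5.28 CPM with log2 fold changes of 0.089 and 0.20. Of the Gq class, Gnaq averaged 47.4 CPM with a log2 fold change of -0.092, and Gna11 averaged 19.5 CPM in WT and 20.5 CPM in KO. Among the other receptors that couple to Gs, Gpr65, a proton sensor, averaged 118 CPM with a log2 fold change of 0.17 (edgeR adjusted p 0.486). Ptger4, a prostaglandin E2 receptor, averaged 74.3 CPM with a log2 fold change of -0.030, and Calcrl, the calcitonin receptor-like receptor, averaged 21.8 CPM with a log2 fold change of -0.28 (edgeR adjusted p 0.579).

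**Figure D4:**
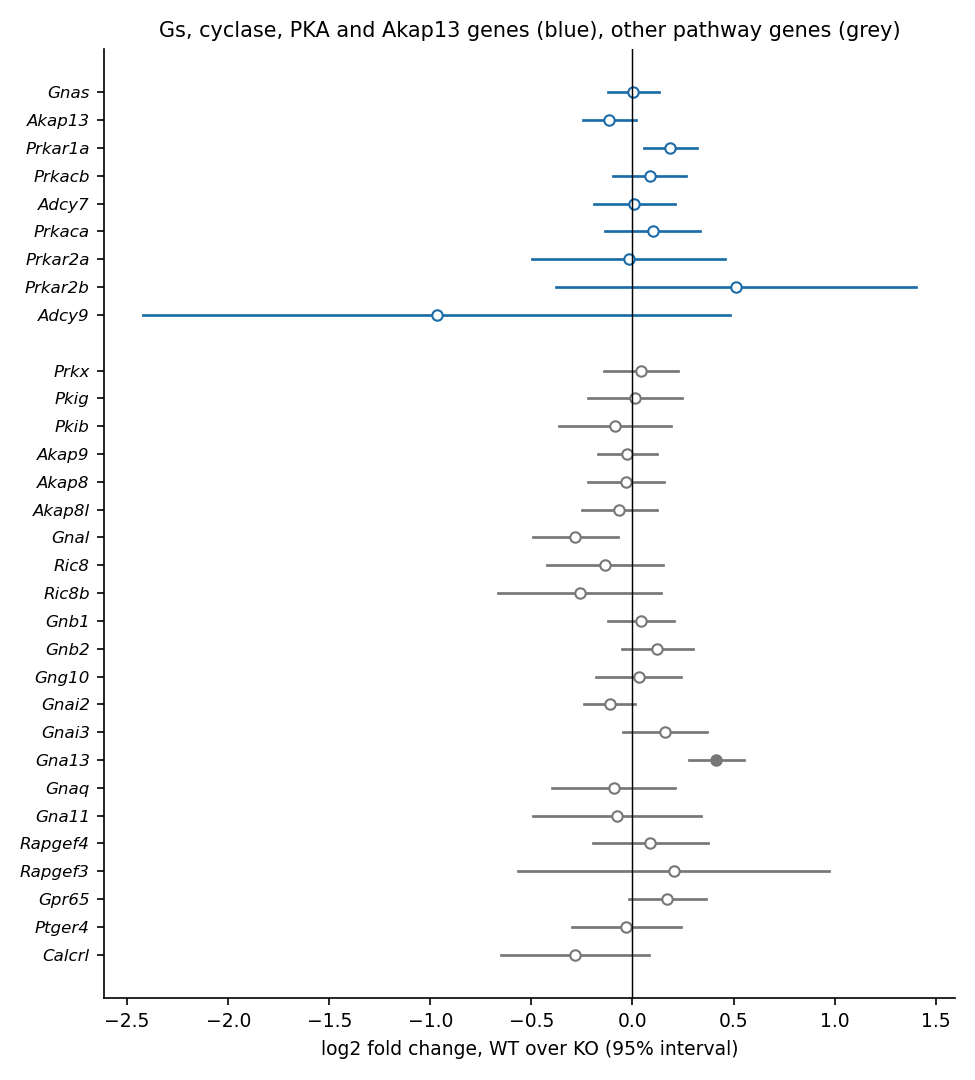
Log2 fold changes of WT over KO with 95% intervals for the 9 tested Gs, cyclase, PKA and Akap13 genes (blue) and for the best counted or called genes of the other pathway lists (grey). A filled point marks an edgeR adjusted p under 0.05, which Gna13 reached at 0.41, whereas Prkar1a at 0.19 did not.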

How the data were processed

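Per the study's methods, libraries were made with the QuantSeq 3′ kit, single-end reads were aligned to mm10 with STAR, and reads per gene were counted with HTSeq. Versions, annotation and strand setting were not given in the sources used here. The deposited values are raw counts per gene, not normalized or pooled, and 0 sample columns were left unused. No molecular identifiers were described, so floors cover counting error only. Libraries were grouped by title. Replicate pairs differed far beyond sampling noise (chi-square per degree of freedom 6.89 to 10.9).

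Genes were filtered with filterByExpr (10514 kept) and tested with edgeR 4.0.16 (R 4.3.3), by its two-sided quasi-likelihood test with TMM factors, robust dispersions and Benjamini-Hochberg adjustment over all tested genes. SE is the absolute log2 fold change over the square root of F. CPM are counts over TMM-scaled library size. Shares were compared by exact two-sided permutation tests (scipy 1.17.1). Alternatives used DESeq2 1.42.0 (the study's tool), limma 3.58.1 voom, other factors, filters and dispersions, a replicate block and omission of each library. DESeq2 on filtered genes and sums without one library were added after seeing the data. Tests were checked on simulated counts.

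The genes and lists were chosen with earlier results of these data known. Named genes were the 10 chosen genes and, from each other list, called genes and the 3 with the highest mean CPM, with exceptions named as such. Listed genes without a row were matched by RefSeq synonyms. Positions and transcript lengths are from GENCODE M21 (mm10), promoter windows from RefSeq (GRCm38.p6). Of the study's own comparison values none were used. Values of some listed genes are not reported here.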

Additional observations from a re-analysis of the deposited data

How the results depend on the processing

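The count of the 10 genes called was 1 with DESeq2 on the whole table (Prkar1a) and 0 in the other alternatives run. Over all genes, 191 were called, 95 at an adjusted p under 0.01, and 91 to 183 without one library each (91 without KO replicate 3, 113 without KO replicate 2). With the replicate number as a block, 281 genes over all, 0 of the 10 genes and 1 other pathway gene were called, with a Prkar1a adjusted p of 0.114 (edgeR). Same-numbered WT and KO libraries deviated together only weakly (r across genes 0.050, 0.014 and 0.043), so the numbers were not taken as pairs, although each library correlated best with its own number, a hint from the data and not the design. Signs near 0 were not fixed: Gnas was -0.0054 with upper-quartile factors, -0.0022 with library totals alone and -0.029 to 0.030 without one library, Adcy7 -9.8e-05 with upper-quartile factors and -0.050 to 0.11 without one library, Prkacb -0.020 to 0.15, and Prkar2a -0.16 to 0.16. The WT minus KO difference in the Prkacb share ranged from -2.77 to 1.06 percentage points, that in the Prkar1a share from -0.144 to 0.445, and that in summed cyclase CPM from -5.50 to 9.81. Per kilobase of transcript, 7 of 9 neighboring pairs kept their order. The causes were not tested. Prkar1a, Akap13, Prkaca, Prkar2b, Adcy9 and Gna13 kept their direction in every alternative that gave a value. Prkaca, however, came near 0, at 0.017 without WT replicate 2 and 0.022 without KO replicate 3. Depth limits Adcy3, Adcy9 and Prkar2b most. With a filter of at least 50 counts on average, Adcy9 and Prkar2b were not tested.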
